A study of Mus musculus with 4 samples.

Results

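The genes described here make, store, release and take up fatty acids and triacylglycerol, and a few serve glucose uptake and insulin signalling (Slc2a4, Insr and Irs1). The set holds 46 genes chosen by function, with results of these data known, and found by symbol in the platform annotation, out of 19938 genes on the array, and it falls into lipogenesis (15 genes), triacylglycerol synthesis (17), lipolysis (5) and uptake (9). Of these, 44 have a probe set that names no other gene, and 42 passed the filter on low levels and were tested. Acsl1 and Acsl3 have no such probe set and Mogat1 and Mogat2 fell below the filter. Their RNA levels were measured in whole skin of female mouse embryos at E17.5 (embryonic day) on 4 Affymetrix arrays, and every array pooled 2 animals. Controls (2 arrays) carried TRE-Ovol2-Flag, a transgene that waits for a tetracycline transactivator, or was wild type, and its strain is labelled CB6F1. The Ovol2 BT group (2 arrays) carried TRE-Ovol2-Flag together with K5-tTA, in which a keratin 5 promoter makes that transactivator in basal cells of the epidermis, and its strain is labelled FVB/N. Strain and genotype therefore cannot be told apart by the labels, although the mice are also called littermates.

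Fatty acids are built in the cytosol from acetyl-CoA, which citrate carries out of the mitochondrion, by way of malonyl-CoA and fatty acid synthase, and are then elongated and desaturated. Triacylglycerol is made by adding acyl chains to glycerol 3-phosphate in turn and is stored in lipid droplets, from which lipases release the chains again. In skin the adipocytes below the dermis are the main store, keratinocytes and sebocytes make lipids of their own for the barrier and for sebum, and lipoprotein lipase on vessel walls supplies fatty acids from the blood.

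Ovol2, the check of the labels, had intensities of 360 and 161 in controls against 4367 and 3893 with the driver (limma adjusted p = 0.00311). Skin markers were bright on every array, with the suprabasal keratin gene Krt10 between 8733 and 10654 and the collagen gene Col1a1 between 7317 and 9027. Median intensities lay between 122.8 and 132.2. Calls are those with an adjusted p under 0.05 in a limma fit over 14953 genes on log2(intensity + 16), and differences below are Ovol2 BT minus control on that scale. Titles call the arrays of a group biological replicates, and the labels do not tie them to litters.

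Of the 42 tested genes, 13 were called, all of them higher in Ovol2 BT skin, against 0.615% called higher and 0.348% called lower of all genes tested (0.963% in either direction). The median difference of the set was 0.61, while that of all genes tested was -0.04. Both Ovol2 BT arrays lay above both controls for 26 of the 42 genes and below them for 4, where 20.4% and 21.9% of all genes did so. A rise of at least 2-fold was seen for 18 of the genes, against 0.876% of all genes, and no gene of the set was 2-fold lower. The calls were 5 of 15 in lipogenesis, 5 of 13 tested in triacylglycerol synthesis, 3 of 5 in lipolysis and 0 of 9 in uptake, with median differences of 0.34, 0.37, 1.73 and 0.66. Whether these shares differ between the steps was not tested. Because whole skin was used, a higher level can mean more cells of a type or more RNA per cell, and these cannot be told apart.

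**Figure D1:**
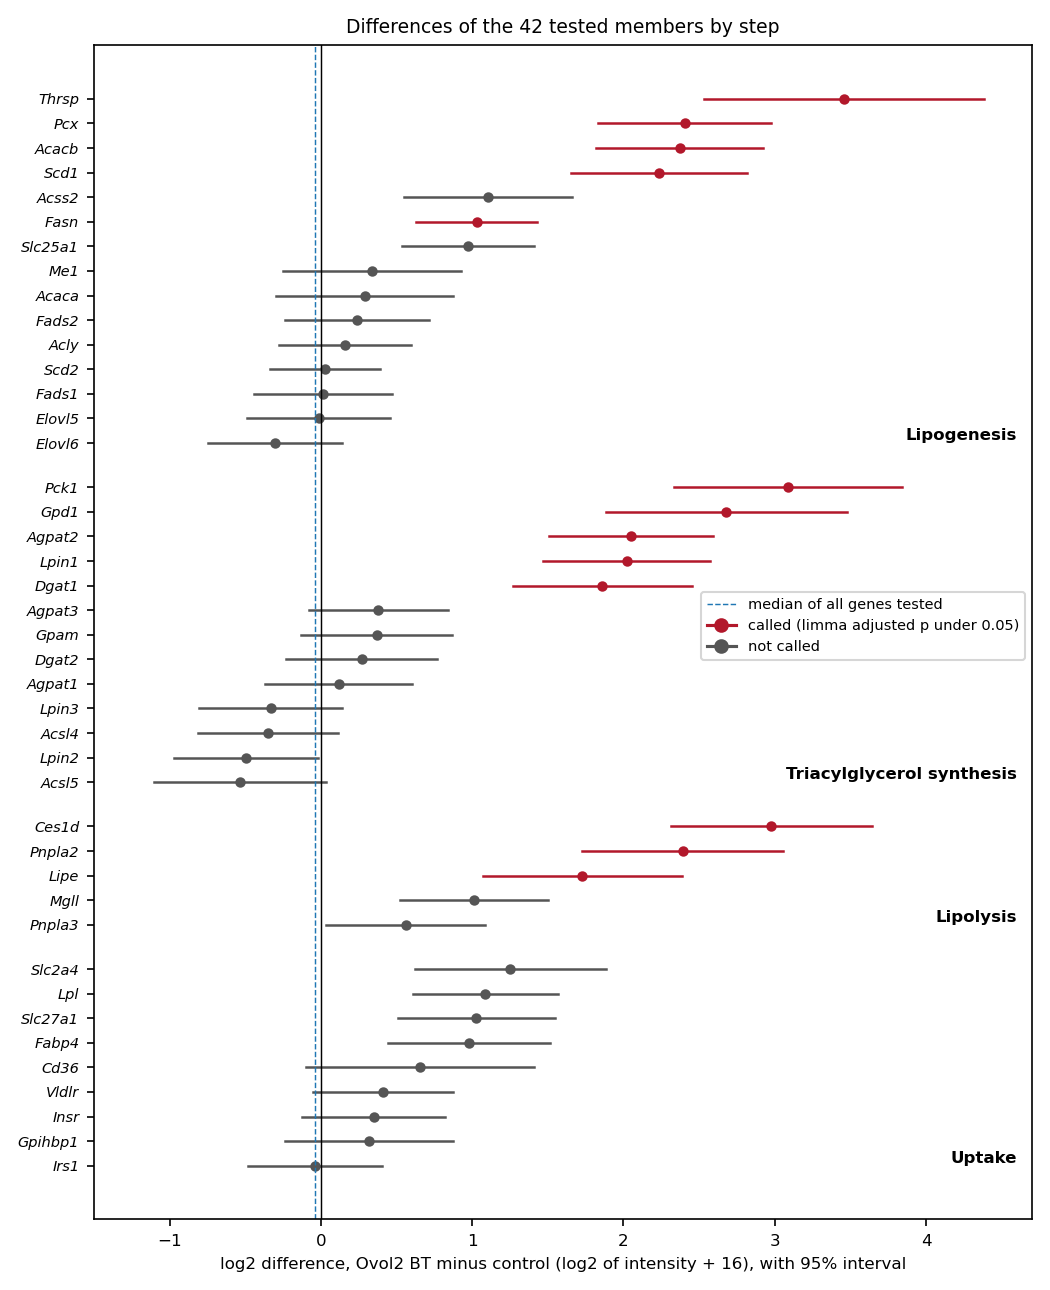
Difference of log2(intensity + 16) between Ovol2 BT and control (x axis, 2 arrays per group) for each tested gene (y axis), with bars for the 95% interval of the limma fit and the dashed line at the median of all genes. The 13 called genes, in red, lie between 1.03 (Fasn) and 3.46 (Thrsp), and no uptake gene is among them.

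Among the genes of lipogenesis, the acetyl-CoA carboxylase gene Acacb and the stearoyl-CoA desaturase gene Scd1 rose, while their relatives Acaca and Scd2 were not called. Thrsp, a small regulatory protein of lipogenic tissues, had intensities of 158 and 45.5 in controls, and of 1178 and 1063 with Ovol2 BT. It rose by 3.46 (SE 0.41, adjusted p = 0.00668), the largest difference of the set, and the groups were far apart although control replicate 2 was much the lower control. Without control replicate 1 the rise was 4.2, and without control replicate 2 it was 2.71. Pcx, the pyruvate carboxylase that replenishes mitochondrial oxaloacetate, stood at 596 and 374 in controls and at 2777 and 2379 with Ovol2 BT. Its rise of 2.4 (SE 0.25, adjusted p = 0.00481) was much larger than the gap between replicates of either group. Acacb, the acetyl-CoA carboxylase of the mitochondrial surface, whose malonyl-CoA restrains fatty acid oxidation, measured 135 and 92.3 in the controls against 735 and 567. It rose by 2.37 (SE 0.24, adjusted p = 0.00471).

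Scd1, the stearoyl-CoA desaturase that makes oleate, had 982 and 873 in controls against 3385 and 5767 with Ovol2 BT, a rise of 2.24 (SE 0.26, adjusted p = 0.00605). The controls agreed closely and Ovol2 BT replicate 2 was the highest. Fasn, the fatty acid synthase itself, was already bright in the controls at 2118 and 1809 and reached 3902 and 4132 in Ovol2 BT. Its rise of 1.03 (SE 0.18, adjusted p = 0.0328) was the smallest of those called, and the call ended without Ovol2 BT replicate 2 (adjusted p = 0.0563) and without a variance trend (adjusted p = 0.0609). Slc25a1, the mitochondrial citrate carrier, was at 1827 and 1456 against 3385 and 3059 (0.97, adjusted p = 0.0653). Acss2, which makes acetyl-CoA from acetate, was at 385 and 338 against 652 and 966 (1.1, adjusted p = 0.103). Neither was called, although their groups did not overlap. Slc25a1 was called after quantile normalization (adjusted p = 0.0282) and with the lowest 50% left out (adjusted p = 0.028). Its difference lay between 0.81 and 1.14 with an array left out. That of Acss2 lay between 0.83 and 1.38.

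The other 8 genes of lipogenesis differed by less than 1.3-fold in either direction, from -0.31 to 0.34. Acly, which splits citrate into acetyl-CoA, had 1632 and 1425 in controls against 1636 and 1772 with Ovol2 BT (0.16, 95% interval -0.28 to 0.59). Acaca, the cytosolic acetyl-CoA carboxylase of fatty acid synthesis, had 687 and 713 against 674 and 1093 (0.29, interval -0.29 to 0.87), so that only Ovol2 BT replicate 2 stood above the controls. Elovl6, the elongase of palmitate, had 1367 and 1288 against 1028 and 1116 (-0.31, interval -0.75 to 0.14), with both Ovol2 BT arrays lower. Scd2, a second stearoyl-CoA desaturase, was between 4387 and 5130 on every array (0.03, interval -0.33 to 0.39). The elongase gene Elovl5 (-0.02), the desaturase genes Fads1 (0.01) and Fads2 (0.24) and the malic enzyme gene Me1 (0.34), a source of NADPH, also overlapped between groups, and the signs of Elovl5, Fads1, Scd2 and Acaca turned in at least 1 alternative.

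**Figure D2:**
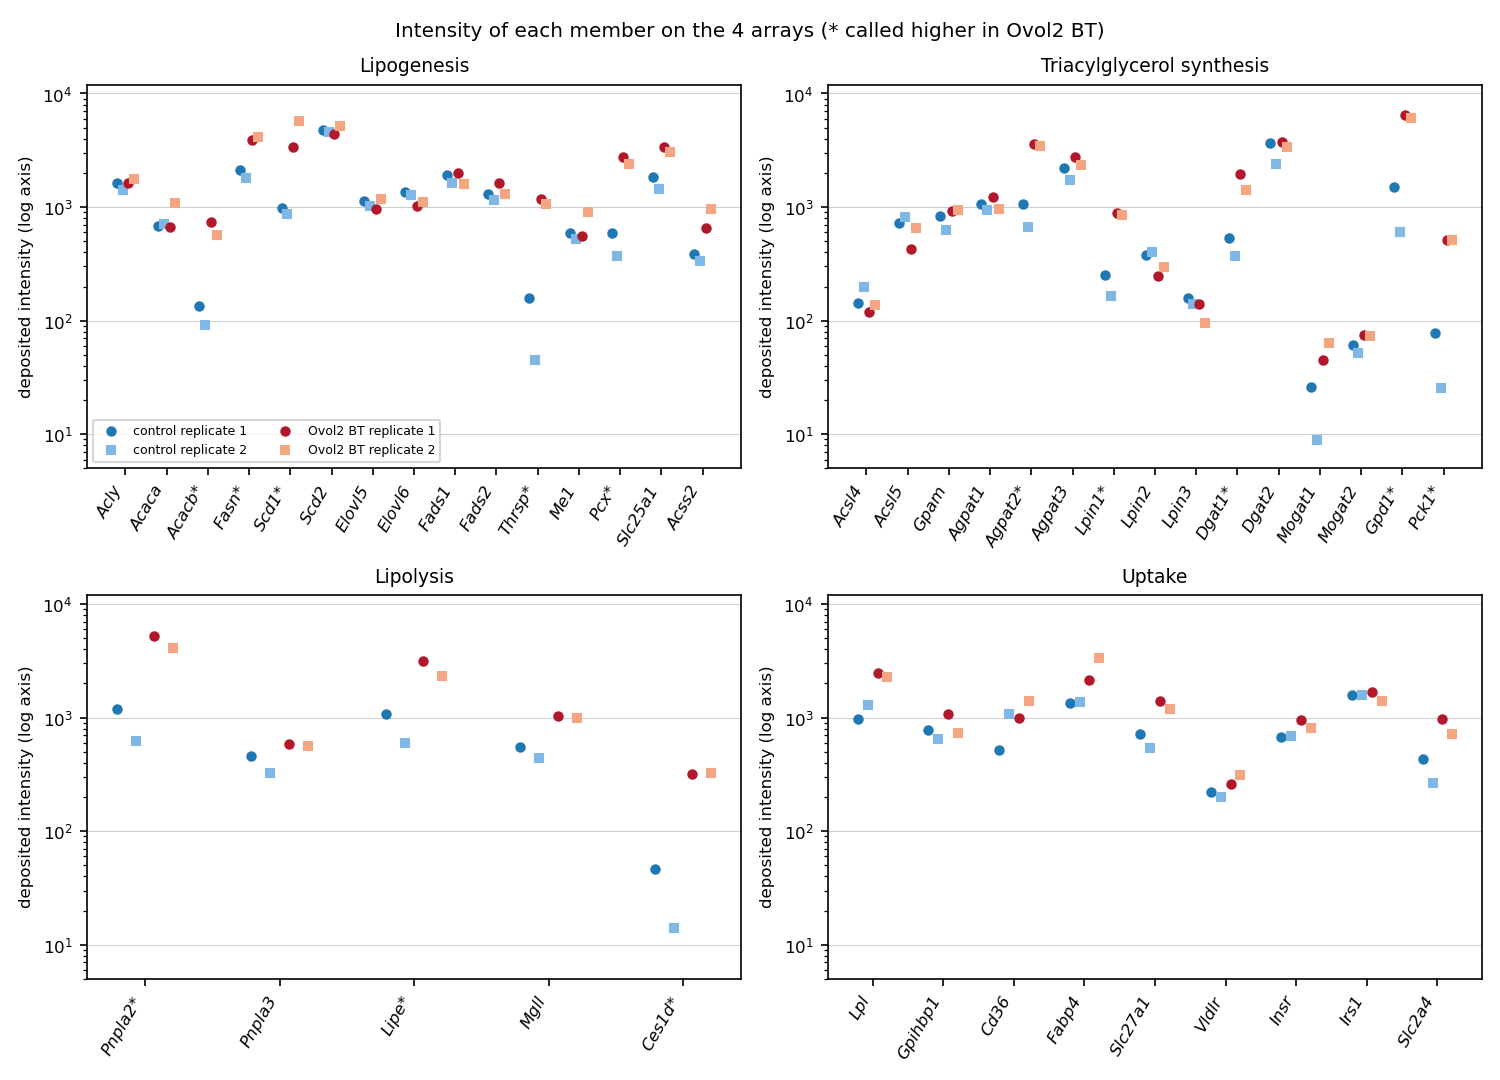
Deposited intensity (y axis, log scale) of the 44 genes with a probe set of their own on each of the 4 arrays, by step, with blue for control, red for Ovol2 BT, circles for replicate 1 and squares for replicate 2. An asterisk marks the 13 called genes; for Thrsp, Gpd1, Pck1 and Ces1d, control replicate 2 lies well below control replicate 1.

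The promoters of the set were searched for short motifs of general and lipogenic promoters. RefSeq windows of GRCm38.p6, each 300 bases long from 250 before to 50 after an annotated start, matched 33 of the 46 genes by symbol (46 windows), among them 9 of the 13 called. The windows of 3 called lipogenesis genes and of Pck1, the gene with the largest rise in triacylglycerol synthesis, are given 5′ to 3′ along the gene, with matches on either strand to the CCAAT box, the TATA box or the GC box in capitals.
Thrsp (chr7:97417501-97417800, minus strand): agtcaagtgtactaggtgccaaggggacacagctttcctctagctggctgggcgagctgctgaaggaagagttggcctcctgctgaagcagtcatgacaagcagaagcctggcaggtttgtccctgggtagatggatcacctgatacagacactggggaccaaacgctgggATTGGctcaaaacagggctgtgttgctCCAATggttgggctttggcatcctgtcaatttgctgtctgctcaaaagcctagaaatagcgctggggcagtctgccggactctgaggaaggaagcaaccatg
Fasn (chr11:120824498-120824797, minus strand): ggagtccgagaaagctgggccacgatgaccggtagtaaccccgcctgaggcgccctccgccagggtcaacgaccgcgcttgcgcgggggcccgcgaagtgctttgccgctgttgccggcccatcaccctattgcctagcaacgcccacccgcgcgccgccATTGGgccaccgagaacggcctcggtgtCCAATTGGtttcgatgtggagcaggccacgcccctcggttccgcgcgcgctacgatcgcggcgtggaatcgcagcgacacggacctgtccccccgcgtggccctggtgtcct
Acacb (chr5:114165268-114165567, plus strand): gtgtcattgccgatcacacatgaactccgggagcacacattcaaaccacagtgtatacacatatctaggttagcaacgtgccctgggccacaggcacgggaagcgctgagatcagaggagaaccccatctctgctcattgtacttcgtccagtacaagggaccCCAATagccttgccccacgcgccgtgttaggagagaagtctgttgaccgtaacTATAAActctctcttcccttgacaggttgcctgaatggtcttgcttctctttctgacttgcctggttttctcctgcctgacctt
Pck1 (chr2:173152823-173153122, plus strand): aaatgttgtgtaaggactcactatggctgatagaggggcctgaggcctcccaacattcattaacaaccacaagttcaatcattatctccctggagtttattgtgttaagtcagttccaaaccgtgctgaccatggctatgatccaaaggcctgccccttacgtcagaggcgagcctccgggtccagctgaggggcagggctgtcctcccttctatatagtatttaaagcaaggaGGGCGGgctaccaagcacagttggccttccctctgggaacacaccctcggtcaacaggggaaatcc
The Fasn window holds CCAAT letters at positions -90, -62 and -59 from the start, of which the last 2 overlap, and the Thrsp window holds them at -79 and -52. The Acacb window has a CCAAT at -87 and the TATA box letters TATAAA at -34, and the Pck1 window has the GC box letters GGGCGG at -16. CCAAT was found in 4 of the 9 called genes with a window (Acacb, Fasn, Pcx and Thrsp) and in 16 of the other 24 genes of the set with a window. By window it was in 22 of the 46, and in 37.4% of all 32851 windows. GGGCGG was found in 5 of the 9 (Agpat2, Lipe, Pck1, Pcx and Pnpla2) and in 18 of the other 24. By window it was in 27 of the 46, and in 35.7% of all windows. CACGTG, an E-box, was in the windows of Lipe and Pcx and of 7 of the other 24 genes. By window it was in 9 of the 46, and in 7.15% of all windows. The TATA box letters were in that of Acacb alone (13.6% of all windows). The sterol element core TCACNCCAC was in none of the 9 and in 1 of the other 24, Acsl1 (1.24% of all windows). The Ovo core CCGTTA was in none of the 46 windows (2.76% of all windows). These are matches of letters, not sites.

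In triacylglycerol synthesis the genes that supply the glycerol backbone rose most. Pck1, the phosphoenolpyruvate carboxykinase of glyceroneogenesis, had 78.7 and 25.7 in the controls and 518 on both Ovol2 BT arrays. It rose by 3.09 (SE 0.33, adjusted p = 0.00481), with 3.68 without control replicate 1 and 2.49 without control replicate 2. Gpd1, the glycerol 3-phosphate dehydrogenase of the cytosol, went from 1516 and 607 to 6467 and 6027, a rise of 2.68 (SE 0.35, adjusted p = 0.0103), with 3.33 and 2.03 without these controls in turn. In both genes control replicate 2 was the lowest array by far and the Ovol2 BT arrays were nearly alike.

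The later reactions on the backbone also each had a gene that rose. Agpat2, the acyltransferase that makes phosphatidic acid in fat cells, had 1067 and 669 in controls against 3628 and 3476 with Ovol2 BT (2.05, SE 0.24, adjusted p = 0.00648). Lpin1, a phosphatidate phosphatase, had 250 and 165 against 894 and 856 (2.02, SE 0.24, adjusted p = 0.00732). Dgat1, which adds the last acyl chain, had 539 and 370 against 1974 and 1402 (1.86, SE 0.26, adjusted p = 0.0128). These rises were all larger than the gaps between replicates.

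Gpam and the relatives of these 3 genes were not called. Gpam, the mitochondrial acyltransferase of the first acylation, stood at 834 and 628 against 932 and 946 (0.37, 95% interval -0.13 to 0.87). Dgat2, the other enzyme of the last acylation, stood at 3666 and 2389 in controls against 3761 and 3398 with Ovol2 BT (0.27, interval -0.23 to 0.77), and its sign turned without control replicate 2 (-0.04). Agpat3 was at 0.38 and Agpat1 at 0.12, both relatives of Agpat2. The acyl-CoA synthetase genes Acsl5 (-0.53) and Acsl4 (-0.35) and the phosphatase genes Lpin2 (-0.50) and Lpin3 (-0.33) were the only genes of this step with negative differences. Of these, Acsl5, Acsl4 and Lpin2 had both Ovol2 BT arrays below both controls, as did 21.9% of all genes. The monoacylglycerol acyltransferase gene Mogat1 was dim at 26.2 and 8.88 against 44.7 and 64.2, and in a fit without the filter it was at 1.11 (adjusted p = 0.156), while Mogat2 (61.1 and 51.6 against 74.4 and 73.4) was at 0.32 (adjusted p = 0.566). The probe set that names both Utp14b and Acsl3 read 144 and 241 in controls against 170 and 231 with Ovol2 BT, and was not assigned to either gene.

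All 5 genes of lipolysis had both Ovol2 BT arrays above both controls, where 20.4% of all genes did so. Pnpla2, the adipose triglyceride lipase that takes the first acyl chain, had 1201 and 628 in controls against 5228 and 4101 with Ovol2 BT, a rise of 2.39 (SE 0.29, adjusted p = 0.0076). Lipe, the hormone-sensitive lipase that takes the next, had 1081 and 597 against 3127 and 2335, a rise of 1.73 (SE 0.29, adjusted p = 0.0299). Ces1d, a carboxylesterase of lipid droplets and secretion, was dim in the controls at 46.2 and 14 and reached 321 and 327, a rise of 2.98 (SE 0.29, adjusted p = 0.00451). Control replicate 2 was the lowest array in each of these genes. Mgll, the monoacylglycerol lipase that takes the last chain, had 555 and 441 against 1035 and 991 (1.01, SE 0.22, adjusted p = 0.0871) and was not called. It was called with the lowest 50% left out (adjusted p = 0.0496), and lay between 0.85 and 1.17 with an array left out. Pnpla3, a relative of Pnpla2 with lipase and transferase activity, had 456 and 324 against 588 and 562 (0.56, SE 0.23, adjusted p = 0.455).

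Genes of uptake differed by up to 2.38-fold (Slc2a4) without any being called. This step of 9 genes also holds those of glucose transport and insulin signalling (Slc2a4, Insr and Irs1). The largest fold among the rest was 2.12, for Lpl. At an unadjusted p under 0.05, 4 of the 9 were higher and 0 lower, against 5.11% and 5.24% of all genes. Slc2a4, the insulin-responsive glucose transporter, had 433 and 265 in controls against 968 and 712 with Ovol2 BT (1.25, SE 0.28, adjusted p = 0.103). Lpl, the lipoprotein lipase, had 965 and 1296 against 2495 and 2293 (1.09, SE 0.21, adjusted p = 0.059), and here control replicate 1 was the lower control. Slc27a1, a fatty acid transport protein, had 723 and 539 against 1409 and 1179 (1.03, adjusted p = 0.103). Fabp4, the fatty acid binding protein of adipocytes, had 1349 and 1359 against 2140 and 3363 (0.98, SE 0.24, adjusted p = 0.139). Both Ovol2 BT arrays lay above both controls for these 4 genes and for Insr and Vldlr, 6 of the 9, where 20.4% of all genes did so. The calls of Lpl and Slc2a4 turned on the processing. With all arrays kept, Lpl was called with the lowest 50% of genes left out (adjusted p = 0.0217), after median centring (adjusted p = 0.0444) and with a robust variance trend, and Slc2a4 with the lowest 50% left out (adjusted p = 0.0465). With an array left out, the difference of Slc2a4 lay between 0.91 and 1.59 and that of Lpl between 0.88 and 1.30. That of Slc27a1 lay between 0.82 and 1.23 and that of Fabp4 between 0.65 and 1.30.

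Cd36, the scavenger receptor that takes up long-chain fatty acids, overlapped between the groups, with 520 and 1071 in controls against 998 and 1409 with Ovol2 BT (0.66, 95% interval -0.10 to 1.41). Its difference was 0.15 without control replicate 1 and 1.17 without control replicate 2. Gpihbp1, which anchors lipoprotein lipase on capillary walls, had 780 and 648 against 1080 and 734 (0.32, interval -0.24 to 0.88). Insr, the insulin receptor gene, had 670 and 695 against 948 and 805 (0.35, interval -0.12 to 0.82), while its substrate gene Irs1 overlapped at 1573 and 1591 against 1683 and 1405 (-0.04). The lipoprotein receptor gene Vldlr had 222 and 201 against 263 and 311 (0.41, interval -0.05 to 0.88).

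Genes of the same kind were also compared on the same arrays. For 8 pairs, the difference between both genes' log2 values was taken within each array, and only its change between groups was read, since levels of different probe sets cannot be compared. Against Scd2, Scd1 moved up by 2.21 (1.94 and 2.48 on the Ovol2 BT arrays, with the controls within 0.05 of their mean). Lpin1 moved up against Lpin2 by 2.52, Agpat2 against Agpat1 by 1.93 and Pnpla2 against Pnpla3 by 1.83. Acaca moved down against Acacb by 2.08 (-2.61 and -1.56), and Dgat2 against Dgat1 by 1.59 (-1.76 and -1.42). The groups did not overlap in these 6 pairs. In each of them 1 gene was called on the same arrays and the other was not, so the pair largely repeats that call and adds no support to it. Groups were also apart in Elovl6 against Elovl5 (-0.29) and Mogat1 against Mogat2 (0.79, from dim signals, with 1.35 at a pseudocount of 1 and 0.34 at one of 64). Of single genes, 20.4% had both Ovol2 BT arrays above both controls and 21.9% below. The share over other pairs of genes was not computed. An exact two-sided permutation test of 2 against 2 arrays cannot go below p = 0.333, which each of the 8 pairs had (adjusted p = 0.333 over the 8). It therefore cannot decide whether the genes of a pair changed unequally.

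**Figure D3:**
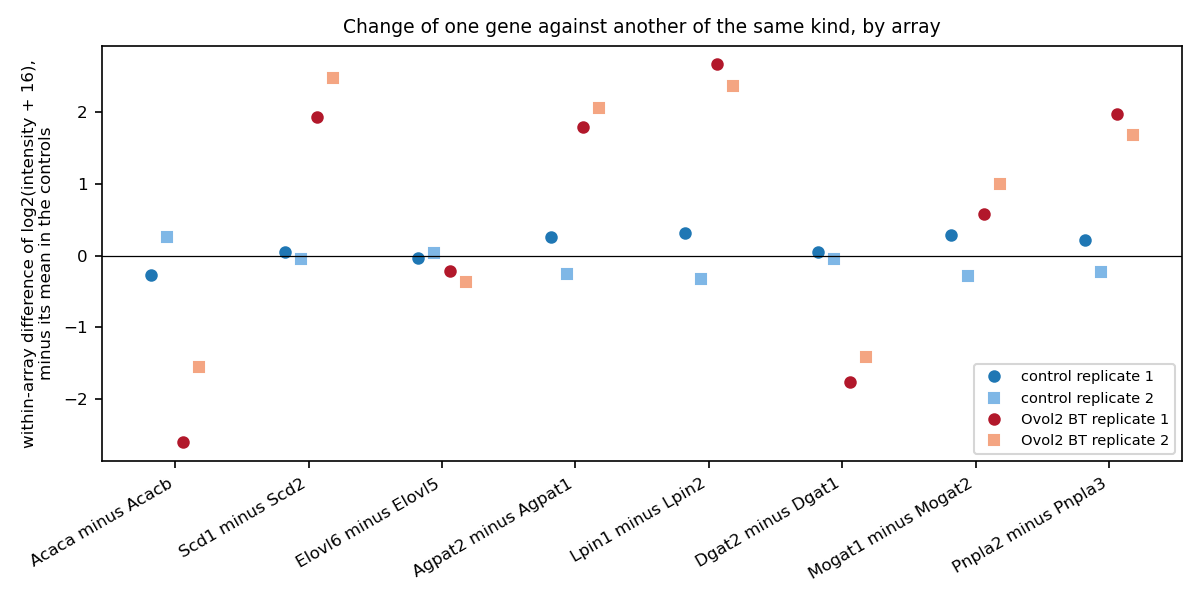
Change of one gene against another of its kind (y axis, within-array difference of log2(intensity + 16) minus its mean in the controls) for 8 pairs of genes, with 1 point for each array. Scd1, Agpat2, Lpin1 and Pnpla2 move up by 1.83 to 2.52 on average against their partners, while Acaca and Dgat2 move down by 2.08 and 1.59.

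The 13 called genes also differed between the control arrays. Control replicate 1 was above control replicate 2 for all 13, with a median gap of 0.66 on the log2 scale, while this was so for 20 of the 29 other tested genes of the set (median gap 0.17) and for 8560 of the 14953 genes tested (0.05). In the uptake step 4 of 9 genes had that order (median gap -0.01). The Ovol2 BT arrays were closer, with a median gap of 0.10 over the called genes. Scd1, Acaca, Acss2, Acsl5, Me1 and Fabp4 were higher in Ovol2 BT replicate 2, where replicate 1 read 0.587 to 0.675 of its value, while Dgat1, Lipe, Slc2a4, Lpin3 and Gpihbp1 were higher in replicate 1 by 1.34 to 1.47-fold.

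Of 51 tested genes among 65 further symbols of the pathway, 3 were called higher and 1 lower, against 0.615% and 0.348% of all genes. Their median difference was 0.14. Mlxipl, the glucose-sensing transcription factor ChREBP, had 104 and 61.8 in controls against 349 and 290 with Ovol2 BT (1.79, SE 0.24, adjusted p = 0.0113). Pdk4, a kinase that turns off pyruvate dehydrogenase, had 165 and 170 against 546 and 438 (1.46, SE 0.21, adjusted p = 0.0152). Acss3, a mitochondrial acyl-CoA synthetase, had 55.8 and 58.9 against 153 and 117 (1.03, SE 0.17, adjusted p = 0.0269), and lost its call under quantile normalization (adjusted p = 0.0601) and without a variance trend (adjusted p = 0.0771). The carboxylesterase gene Ces2g fell from 1821 and 1433 to 646 and 741 (-1.20, SE 0.22, adjusted p = 0.0403), and lost its call without control replicate 1 (adjusted p = 0.0949), without Ovol2 BT replicate 1 (adjusted p = 0.0519) and without the filter (adjusted p = 0.0586).

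Besides Mlxipl, 3 further regulators of lipogenesis were among the genes with the smallest p and were not called. The sterol regulatory factor gene Srebf1 had 621 and 492 against 1460 and 993 (1.1, adjusted p = 0.112), its retention factor gene Insig1 had 586 and 613 against 1001 and 1226 (0.87, adjusted p = 0.143), and Nr1h3, the liver X receptor alpha, had 228 and 130 against 667 and 434 (1.55, adjusted p = 0.0589). Nr1h3 was called with the lowest 50% of genes left out (adjusted p = 0.0168), after median centring (adjusted p = 0.0387), and without control replicate 1 (1.93), control replicate 2 (1.18) or Ovol2 BT replicate 2 (1.85). Srebf1 was called without control replicate 1 (adjusted p = 0.0168) and without Ovol2 BT replicate 2 (adjusted p = 0.02). The acyltransferase gene Gpat3 (1.41, adjusted p = 0.077), the droplet gene Fitm1 (0.71, adjusted p = 0.255) and G0s2, an inhibitor of adipose triglyceride lipase (0.87, adjusted p = 0.257), completed those with the smallest p. Choosing genes by smallest p favours groups that lie apart, as these did. Of the 51 tested genes, 18 had both Ovol2 BT arrays above both controls, 4 had them below and 29 overlapped. The shares of all genes were 20.4% above and 21.9% below. Gpat3 was called with the lowest 50% left out (adjusted p = 0.0218), after median centring (adjusted p = 0.0478), and without control replicate 1 (1.85) or Ovol2 BT replicate 1 (1.54).

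Many markers of fat cells were also higher in Ovol2 BT. Of 12 tested genes of white and general adipocytes 8 were called, all higher, against 0.615% of all genes called higher. The lowest reading in the list was 41.8, for the leptin gene Lep in control replicate 2. Their summed intensity was 5827 to 8571 in the controls and 22622 to 24172 in Ovol2 BT. The adipokine gene Adipoq had 1076 and 409 against 3568 and 3708, the droplet coat gene Plin1 had 814 and 599 against 2840 and 2302, Retn had 815 and 121 against 3446 and 3625 (adjusted p = 0.0538), and the adiponectin receptor gene Adipor2 had 2328 and 1846 against 3511 and 3465 (adjusted p = 0.155). As with the called lipid genes, Adipoq, Plin1 and Retn were lower in control replicate 2. Of 14 tested brown adipocyte genes 8 were called higher, against 0.615% of all genes. The summed intensity over the list was 1984 to 2487 in controls against 7405 to 9998 in Ovol2 BT. Among the 8 called were Cox8b (2.01, adjusted p = 0.0105), Cox7a1 (3.14, adjusted p = 0.00516), Slc36a2 (3.86, adjusted p = 0.00897) and Kcnk3 (2.81, adjusted p = 0.0117). The 6 not called were Zic1 (-0.05), Lhx8 (0.075), Dio2 (0.20), Prdm16 (0.28), Otop1 (0.65) and Ppargc1a (0.92). The part of fat cells in the results above was not tested.

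Of 9 tested genes of adipocyte progenitors none was called by limma (1 at an unadjusted p under 0.05), with a median of 0.09 and a summed intensity of 20018 to 23287 in the controls and 20779 to 21378 in Ovol2 BT. Of 8 tested sebocyte genes 1 was called higher (Cidea, which is in the brown list too), against 0.615% of all genes. Elovl3, which is in both lists as well, was left out by the filter on low levels. At an unadjusted limma p under 0.05, 4 of the 8 were higher and 2 lower (Far2, -1.35, and Prdm1, -0.70), against 5.11% and 5.24% of all genes. The summed intensity of the list's 12 genes with a probe set, tested or not, overlapped between groups at 5262 to 6061 and 5166 to 5516. Skeletal muscle, endothelial, fibroblast, macrophage, suprabasal keratinocyte and erythroid lists had no call by limma. In that order their medians were 0.33, 0.28, 0.06, 0.25, -0.22 and 0.20, and 4, 0, 0, 2, 2 and 0 genes had an unadjusted limma p under 0.05. Of 8 basal keratinocyte genes 3 were called lower, against 0.348% of all genes. In the liver list 7 of 7 tested genes had lower values in Ovol2 BT, as did 8310 of the 14953 genes tested. Of the 7, 1 was called (Alb, -2.63, limma adjusted p = 0.0328, and 0.0535 under quantile normalization or 0.0561 without a variance trend), against 0.348% of all genes. The list's summed intensity was 2722 to 6506 in controls against 843 to 1351 in Ovol2 BT. Its controls differed widely, as in Afp (2146 and 482) and Alb (305 and 865), and control replicate 1 was the higher in 4 of the 7. The part of any of these cell types in the results was not tested.

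**Figure D4:**
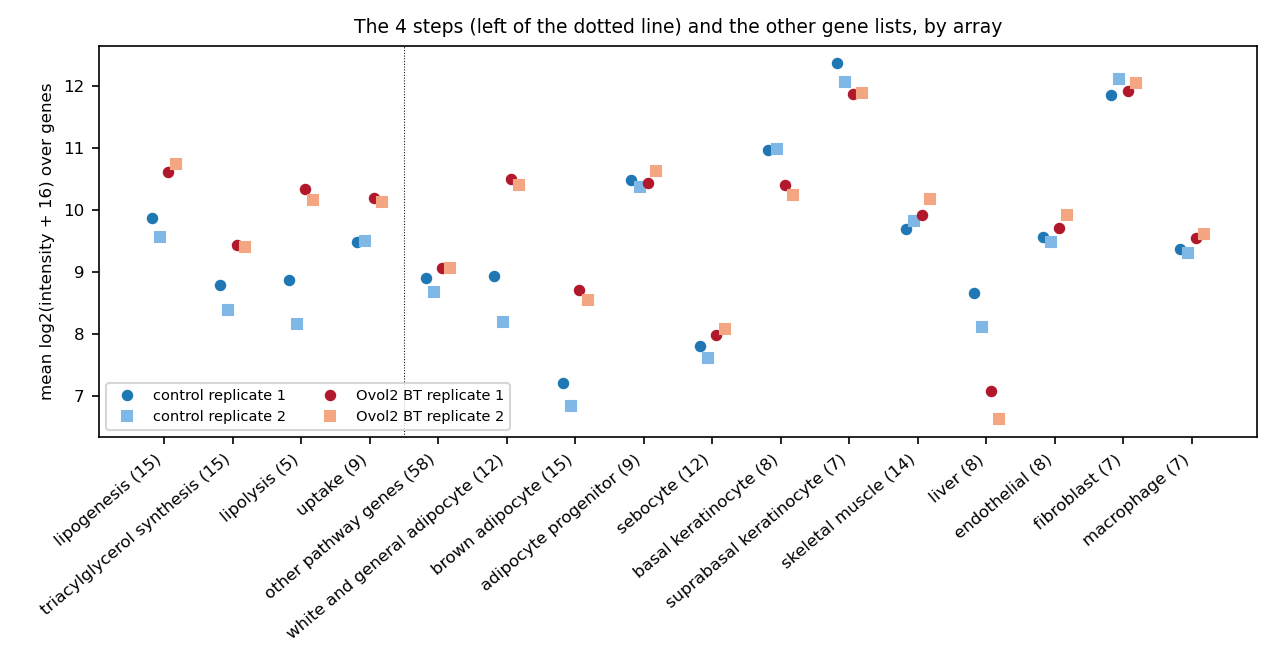
Mean log2(intensity + 16) over the genes of each list (number in parentheses) on each of the 4 arrays, with the 4 steps left of the dotted line. The steps, the other pathway genes and the adipocyte, sebocyte, skeletal muscle, endothelial and macrophage lists are higher on both Ovol2 BT arrays. Of the sebocyte list, Cidea (3.14) and Elovl3 (1.55, not tested) are also in the brown list, and 3 of its 8 tested genes had lower values. The liver, basal and suprabasal keratinocyte lists are lower on both, and the fibroblast and progenitor lists overlap. The erythroid list (3 genes) is not drawn.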

How the data were processed

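The authors deposited 1 linear intensity for every probe set on each of 4 arrays. Per the submitters' processing notes they used PLIER 2.0 and the Affymetrix Expression Console 1.1.1. How background was corrected, how arrays were normalized and which genome build applies is not given in the sources used here, and the files carry no detection calls. Of 35557 probe sets, 21789 name 1 gene, 1621 name several and 12147 are not named. For each gene the 1-gene probe set with the highest mean was used, and 19856 of 19938 genes matched the RefSeq table (GRCm38.p6, for names) by Entrez ID.

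Values were analysed as log2(intensity + 16), which understates changes of dim genes, without further normalization. The 25% of genes with the lowest mean (4985) were left out. The groups were compared with limma 3.58.1 (R 4.3.3; lmFit and eBayes with a variance trend; residual df 2, prior df 6.94). Tests were two-sided, and p-values were adjusted by Benjamini and Hochberg's method across 14953 genes. The script was tested on simulated data. Summaries used Python 3.11.15 and pandas 2.3.3. The genes, lists, tests and alternatives were chosen with earlier results of these data known. The text gives values on every array for called genes and for a fixed set of main enzymes, other pathway genes that were called or had the smallest p, and the brightest markers of a list. With 2 arrays a group, precision is limited by their number. Pairs with Acsl1 could not be compared.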

Additional observations from a re-analysis of the deposited data

How the results depend on the processing

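The fit was repeated with pseudocounts of 1 and 64, unfiltered or with the lowest 50% left out, after quantile normalization or median centring, with probe sets averaged by gene, with no or a robust variance trend, with a replicate block, omitting single arrays, and at a threshold of 0.10. With 1 array left out, the lone array of its group is assumed to vary like the others. Adjusted p-values and calls of those fits therefore do not measure the spread of that group. The set had 13 calls, against 12 without a variance trend and 14 with a robust one. It had 13 to 15 under the other pseudocounts, filters, normalizations and averaged probe sets, and 16 at the threshold of 0.10. The median difference of the set was 0.61, and 0.59 to 0.79 with an array left out. Over all genes 144 were called, and 206 to 366 with an array left out, the highest without control replicate 1 and next without Ovol2 BT replicate 2 (249). With the replicate block, 671 genes and 20 of the set were called, the latter with 4 of 9 uptake genes (Lpl, Fabp4, Slc27a1 and Slc2a4) and with Slc25a1, Acss2 and Mgll; the numbers are not stated to pair the arrays, but arrays of the same number deviated together (correlation 0.41 over genes). The called genes other than Fasn kept their call in every alternative in which they were tested, while Pck1 and Ces1d were not tested with the lowest 50% left out. No gene of the set was called lower in any alternative. Of 584 results for single genes of the set, 544 kept direction and side of the threshold, 25 gained a call, 2 lost one and 13 changed sign, none of these called. Elovl5 was at 0.049 under quantile normalization and 0.010 under median centring, and Irs1 at 0.014 under quantile normalization. With an array left out, Elovl5 lay between -0.15 and 0.12, Scd2 between -0.084 and 0.14, Fads1 between -0.14 and 0.17, Dgat2 between -0.036 and 0.58, Agpat1 between -0.049 and 0.28, Acaca between -0.053 and 0.63 and Irs1 between -0.17 and 0.088. The cause of these changes was not tested.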
